A study of Zea mays with 6 samples.

Results

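Maize leaves carried transcripts of 5 cytochrome P450 genes that lie in 2 places of the genome: a pair annotated as CYP709 on chromosome 2 and 3 genes spread along a short stretch of chromosome 3. The 5 were listed by identifier, and all of them were found among the 45953 features of the deposited table and among the 24704 genes with enough counts to be fitted. The list places the second set on chromosome 9, whereas the table places it on chromosome 3. Of those 3 genes only Zm00001d044157 is described as family 72, subfamily A, polypeptide 8 (72A8). Zm00001d044153 and Zm00001d044159 carry only the names cytochrome P450 10 and cytochrome P450 11, and are called by them here. The table holds 247 P450 genes in all.

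P450 enzymes are heme proteins, mostly anchored in the endoplasmic reticulum membrane, that insert an oxygen atom into small molecules. Their electrons come from NADPH-cytochrome P450 reductase and in some reactions from cytochrome b5. The CYP709 and CYP72 families belong to 1 branch of plant P450s, the CYP72 clan, which also holds families that inactivate gibberellins and brassinosteroids. Known activities come from other species: wheat CYP709C1 hydroxylates fatty acids, Catharanthus CYP72A1 makes the iridoid secologanin, and rice CYP72A31 confers tolerance to some herbicides. The substrates of the maize genes described here are not given in the sources used.

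Poly(A) RNA of Zea mays leaf was sequenced in 6 libraries. The LW group of 3 came from plants under drought that were supplied with water continuously through negative pressure irrigation, and the CW group of 3 from drip-irrigated plants whose soil was kept moist, so irrigation method and soil water differed together. The labels give no inbred line, plant age or plot, and do not say that replicates were separate plants, so the spread between libraries may be partly technical. Library totals ran from 42927751 to 84084375 estimated counts. CW replicate 3 stood apart from the other CW libraries on the principal component of log2(FPKM + 1) that held 17.3% of the variance, at 81.8 against -35.0 and -26.1, and results that it moves are given with and without it. Levels are FPKM, fragments scaled by transcript length and library size, which allows genes to be compared per length. Fold changes are LW over CW from edgeR's fit to the counts with TMM scaling. The 5 genes were chosen by their higher LW than CW levels in these same libraries, so their own differences are described and not tested.

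CYP709C14 (Zm00001d006947; chromosome 2, 219989864 to 219991904, minus strand) was the most abundant of the 5 in LW. Its level was 159, 198 and 181 FPKM in LW replicates 1 to 3, and 1.72, 1.53 and 6.40 FPKM in CW replicates 1 to 3. The groups did not overlap, and the lowest LW library stood 24.8-fold above the highest CW library, replicate 3. The fitted fold was 44.1 (log2 fold change 5.46, SE 0.64). With 3.83% the coefficient of variation of its scaled counts in LW was small beside the median of 22.0% over the 8379 tested genes that reached a mean of 10 FPKM there, whereas in CW it was 82.7%. Among the P450 genes of the table it ranked 1 by mean FPKM in LW and 56 in CW.

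Its neighbour Zm00001d006948, described as cytochrome P450 709B2 (chromosome 2, 220001132 to 220004557, plus strand), showed the same steps at a lower level. It stood at 78.2, 95.96 and 78.7 FPKM in LW and at 0.94, 0.51 and 4.16 FPKM in CW, replicates 1 to 3, again without overlap and with CW replicate 3 the highest of its group. The fitted fold was 35.9 (log2 fold change 5.17, SE 0.811). The genes point away from each other, with 9227 bases and no annotated feature between them. The ratio of CYP709C14 to its neighbour stayed between 2.03 and 2.30 in the LW libraries and ranged from 1.54 to 3.00 in CW, where both were low. The table gives both the orthology term K20660, which none of the 3 genes on chromosome 3 has. No annotated feature overlaps any of the 5 genes.

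**Figure D1:**
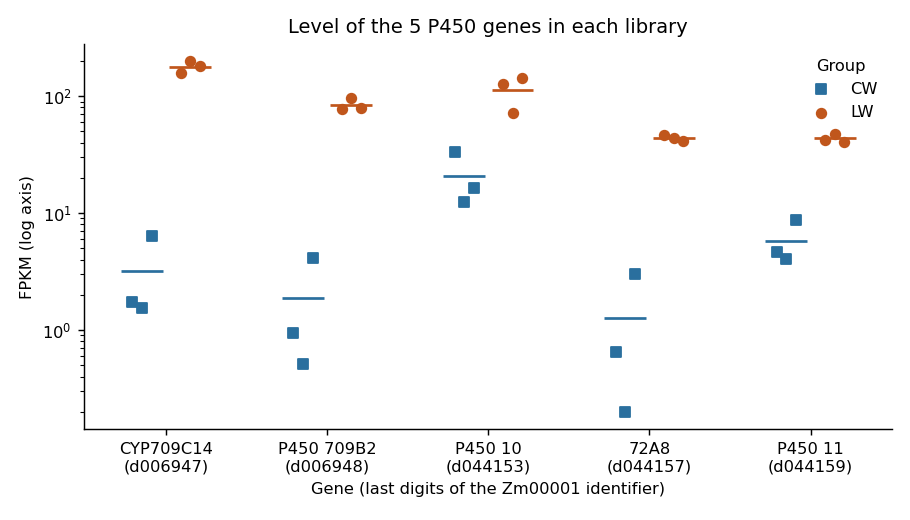
FPKM of each P450 gene (log axis) in every library, with LW as circles, CW as squares and the group mean of 3 libraries as a bar. In all 5 genes the LW points lie above the CW points, by the widest margin in the CYP709 pair and 72A8, and CW replicate 3 (the rightmost square) is the highest CW point in all but cytochrome P450 10.

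Cytochrome P450 10 (Zm00001d044153; chromosome 3, 220577774 to 220580963, minus strand) had the highest level of the 5 in CW. It stood at 127, 71.9 and 143 FPKM in LW and at 33.6, 12.5 and 16.3 FPKM in CW, replicates 1 to 3. The groups lay closer here than in the other genes: LW replicate 2 was 2.14-fold above CW replicate 1. The fitted fold was 4.36 (log2 fold change 2.12, SE 0.472), and the coefficient of variation in LW was 36.3%, the widest of the 5.

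The 72A8 gene Zm00001d044157 (chromosome 3, 220719688 to 220721950, plus strand) lies 138724 bases beyond it. Its level was 46.5, 44.2 and 41.4 FPKM in LW and 0.65, 0.20 and 2.99 FPKM in CW, replicates 1 to 3. The LW libraries differed by no more than 1.12-fold, while CW replicate 3 was 7.04-fold above the mean of the other CW libraries. The fitted fold was 27.4 (log2 fold change 4.78, SE 0.909). Cytochrome P450 11 (Zm00001d044159; chromosome 3, 220748190 to 220751525, plus strand) follows after 26239 bases on the same strand and is the only one of the 5 with more than 1 annotated transcript, 5 in all. It stood at 42.1, 47.9 and 40.7 FPKM in LW and 4.64, 4.06 and 8.75 FPKM in CW. Both genes thus had nearly the same level in LW, at a ratio of 0.923 to 1.10, but not in CW, where 72A8 stood at 0.0493 to 0.342 of its neighbour. The fitted fold of cytochrome P450 11 was 5.92 (log2 fold change 2.57, SE 0.336).

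By mean FPKM in LW the order was CYP709C14 (179 ± 19.7, SD, n = 3), cytochrome P450 10 (114 ± 37.3), 709B2 (84.3 ± 10.1), 72A8 (44.0 ± 2.56) and cytochrome P450 11 (43.6 ± 3.85). Cytochrome P450 10 and 709B2 overlapped, as did 72A8 and cytochrome P450 11, whereas CYP709C14 lay above all others in every LW library. In CW the order was cytochrome P450 10 (20.8 ± 11.2), cytochrome P450 11 (5.82 ± 2.56), CYP709C14 (3.22 ± 2.76), 709B2 (1.87 ± 1.995) and 72A8 (1.28 ± 1.498). There only cytochrome P450 10 was clear of the rest, and the last 4 overlapped from each neighbour to the next. Groups that do not overlap, seen in 5 of the 5, were found in 34.6% of all tested genes. At an adjusted p under 0.05 edgeR's calls covered 2.84% of all tested genes as higher in LW and 2.40% as lower. Since the contrast between the groups chose the 5 genes, nothing is read from this.

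CW replicate 3 set much of the size of the 3 largest folds. Without it the fitted fold was 84.7 for CYP709C14, 90.1 for 709B2 and 79.9 for 72A8, against 3.90 for cytochrome P450 10 and 7.74 for cytochrome P450 11. In 4 of the 5 genes this library was the highest of the CW group by scaled counts, as it was in 39.0% of all tested genes and in 43.0% of the other tested P450 genes. Leaf markers moved with the contrast too. Of 25 tested genes matched by the names of C4 enzymes, Rubisco small subunits and light harvesting proteins, 18 were called lower in LW and none higher. The 31 matched genes, 4 of them at 0 in all 6 libraries, summed to 8879 to 11010 FPKM in LW and 38400 to 60970 in CW. The genes matched by the names of C4 enzymes were mixed, and the names do not show which of them act in the C4 cycle. Phosphoenolpyruvate carboxylase1 (159 to 1192 FPKM in LW, 247 to 472 in CW) and pyruvate, orthophosphate dikinase1 (433 to 911, 581 to 1017) overlapped. Among less abundant matches, pyruvate, orthophosphate dikinase2 was lower in LW (5.17 to 9.76, 42.8 to 50.4), and NADP-dependent malic enzyme 3 was higher (24.1 to 33.6, 9.59 to 14.2). The root list (9 genes matched, 4 at 0 throughout, among them rootless concerning crown and seminal roots1) summed to 8.58 to 10.35 FPKM in LW and 2.42 to 5.82 in CW. Most of that sum was roothair defective1, at 6.93 to 8.70 FPKM in LW and 1.96 to 4.25 in CW. A Casparian strip membrane protein 5 gene (Zm00001d003418) leaned the other way, at 0.22 to 0.37 and 0.36 to 0.76 FPKM. The list of dividing cells (9 matched, 3 at 0) summed to 38.0 to 54.4 and 21.1 to 24.8 FPKM, and the seed list (26 matched, 19 at 0) to 1.54 to 2.68 and 0.57 to 3.63. None of the 5 root, 6 dividing cell and 2 seed genes tested was called in edgeR. The part of these differences in the P450 levels was not tested, and in bulk tissue more cells of a type and more RNA per cell cannot be told apart.

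Most flanking genes, taken by start position alone, were not called, and neither were 23411 of all 24704 tested genes. Of 43 features (10 on each side of each set and 3 between members), 18 were listed at 0 in all 6 libraries and 20 had enough counts to be tested. Of these 20, edgeR called 1 higher and 0 lower, against 2.84% and 2.40% of all tested genes. Their median log2 fold change was 0.57, against 0.06 over all tested genes. For the 18 that are not P450 genes the median was 0.28. At an unadjusted p under 0.05, 5 of the 20 were higher and 1 lower, or 25.0% and 5.0%, against 13.3% and 11.4% of all tested genes. DESeq2 fitted 25 flanking genes and called 4 higher and 0 lower, and limma on log2(FPKM + 1) fitted 19 and called 5 and 0. Over all the genes to which each tool gave an adjusted p, DESeq2 called 9.52% higher and 7.65% lower, and limma 10.1% and 2.40%.

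On chromosome 2 none of 7 tested flanking genes passed in edgeR, and 2 had an unadjusted p under 0.05, as had 24.7% of all tested genes. The nearest tested gene before CYP709C14, GeBP-transcription factor 6 (Zm00001d006945), 13.5 kb away, stood at 3.08 to 4.48 FPKM in LW and 0.28 to 1.43 in CW (log2 fold change 1.62, SE 0.663, adjusted p = 0.187); it passed in limma on log2(FPKM + 1) (adjusted p = 0.0376) but not in DESeq2 (adjusted p = 0.0742). Behind it Zm00001d006944, named CBL-interacting serine/threonine-protein kinase 1 and so of a family that acts in calcium signalling, stood at 3.22 to 4.12 and 0.91 to 1.64 FPKM (2.47-fold, SE 0.395 on the log2 scale, adjusted p = 0.096); it passed in DESeq2 (adjusted p = 0.0146) and in limma (adjusted p = 0.0335). LW and CW did not overlap in either gene, and both levels in LW stayed far below those of the pair. A pentatricopeptide repeat gene, Zm00001d006943, was low, at 0.32 to 2.17 FPKM in LW and 0 to 0.21 in CW, again without overlap. Its log2 fold change was 3.35 (SE 1.57, adjusted p = 0.241). The putative endonuclease Zm00001d006941 was low as well and its groups overlapped, at 0.34 to 1.14 and 0 to 0.59 FPKM (adjusted p = 0.768). A DnaJ-domain chaperone gene, Zm00001d006942, 26.5 kb from the pair, held 24.1 to 28.4 FPKM in all libraries (log2 fold change -0.20, SE 0.211, adjusted p = 0.604). On the other side the first 3 features were at or next to 0, and the p24delta9 gene Zm00001d006951, 12.9 kb beyond 709B2, was at 18.2 to 26.4 FPKM in LW and 8.28 to 21.1 in CW (adjusted p = 0.989). The fifth feature on that side, a tRNA gene, was at 0.

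On chromosome 3 the P450 genes form a run of 7 within 271 kb, of which the 3 listed are the most abundant in LW. The other 4 are all described as 72A8. Zm00001d044147 and Zm00001d044154 were listed at 0 in every library, the latter lying between cytochrome P450 10 and the rest. Zm00001d044146, 95.5 kb before cytochrome P450 10, stood at 19.2, 4.28 and 12.97 FPKM in LW and 0.27, 0.13 and 3.67 in CW (log2 fold change 2.89, SE 1.23, adjusted p = 0.202). Without CW replicate 3 it was called higher, at a log2 fold change of 5.57 (adjusted p = 0.024), and it passed in DESeq2 (adjusted p = 0.0421) and limma (adjusted p = 0.0474). Zm00001d044156, between the members, stood at 22.7, 7.85 and 9.90 FPKM in LW and 2.95, 2.52 and 13.8 in CW. Here the groups overlapped through CW replicate 3 (log2 fold change 0.79, SE 0.744, adjusted p = 0.563). Without that library the log2 fold change was 1.97 (adjusted p = 0.0773), and without LW replicate 1 it was 0.12 (adjusted p = 0.954). Reads that fit more than 1 of these neighbours may have been divided among them, and the identity of their sequences was not analysed here.

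**Figure D2:**
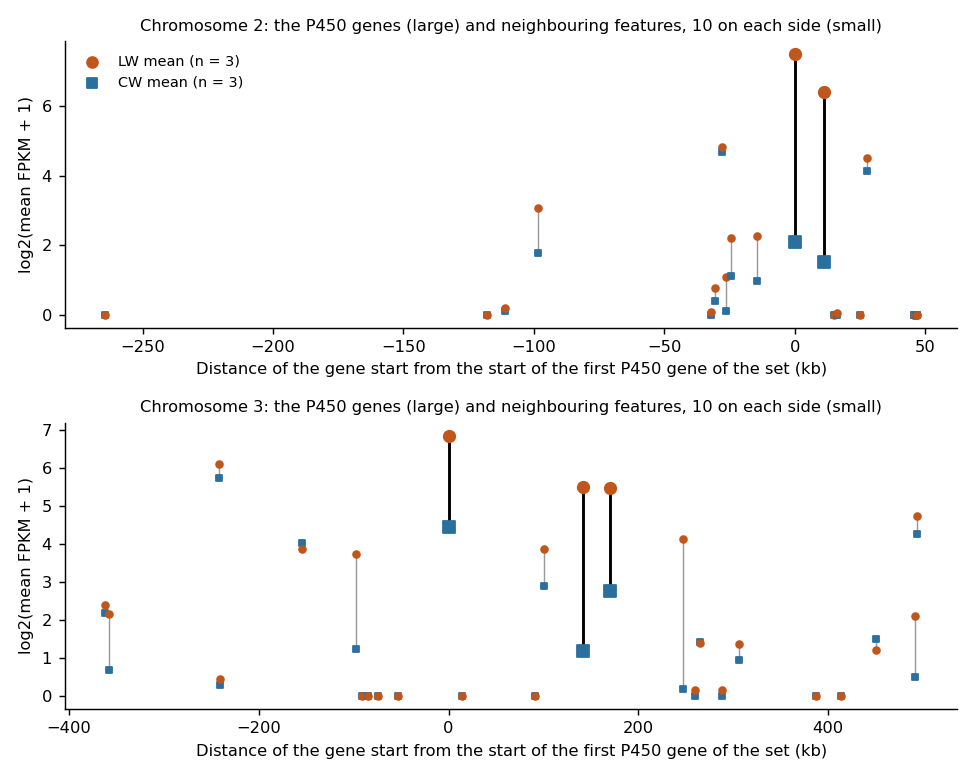
Mean FPKM in LW (circles) and CW (squares) of each annotated feature, as log2(mean FPKM + 1), against the distance of its start from that of the first listed P450 gene, for the sets on chromosomes 2 and 3. The listed genes (large, black lines) stand out from most neighbours (small, grey lines), and the longest grey line on chromosome 3 is WRKY-transcription factor 64.

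The tested P450 genes of this run fell into different patterns within LW, a split named after the values were seen. The 3 on the minus strand, Zm00001d044146, cytochrome P450 10 and Zm00001d044156, were lowest in LW replicate 2, at 0.266, 0.533 and 0.481 of the mean of the other LW libraries. The 2 on the plus strand, 72A8 and cytochrome P450 11, stood there at 1.01 and 1.16 of that mean. Over all tested genes 34.2% had their lowest LW value by scaled counts in replicate 2.

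The 1 flanking gene that edgeR called was WRKY-transcription factor 64 (Zm00001d044162; chromosome 3, 220824499 to 220827409, minus strand), a member of a plant family of DNA-binding regulators. It is the next annotated feature after cytochrome P450 11, 73.0 kb away. It stood at 14.3, 11.1 and 23.6 FPKM in LW and at 0.13, 0 and 0.25 in CW, a log2 fold change of 6.59 (SE 1.08, adjusted p = 0.0299). Of the edgeR fits that left out 1 library, only that without CW replicate 3 kept the call (adjusted p = 0.0234). Leaving out any other gave adjusted p from 0.0593 to 0.132. Over all genes those fits called 0 to 3 higher, or 189 without CW replicate 1. The log2 fold change of WRKY-transcription factor 64 kept between 6.01 and 7.56 whichever library was left out. Beyond it the Beta-adaptin-like gene Zm00001d044164 was at 0.87 to 2.39 FPKM in LW and 1.35 to 2.08 in CW (adjusted p = 0.677), and OVATE-transcription factor 19 (Zm00001d044167) at 0 to 2.35 and 0.69 to 1.12 (adjusted p = 0.909). The remaining named neighbours, an ATP-dependent DNA helicase (Zm00001d044149), a SUVR3 histone methyltransferase gene (Zm00001d044165) and 4 unnamed features, were at 0 or reached no more than 0.33 FPKM.

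The table, apart from the pair, has 14 genes described as CYP709, of which 7 were at 0 in all libraries and 6 were tested. None was called in edgeR, DESeq2 or limma on log2(FPKM + 1), and none had an unadjusted p under 0.05 in edgeR. Over all tested genes edgeR called 2.84% higher and 2.40% lower, and 24.7% had an unadjusted p under 0.05. With 6 genes nothing is read from the lack of calls. The log2 fold changes of the 6 ran from -0.58 to 1.75 with a median of -0.14. The highest, that of Zm00001d040764 (adjusted p = 0.481, edgeR), went to 3.14 without CW replicate 3 (adjusted p = 0.219). A row of 3 stands side by side on chromosome 1, as the pair does on chromosome 2: Zm00001d029288 had 5.47 ± 1.34 FPKM in LW and 4.69 ± 0.488 in CW, Zm00001d029289 20.1 ± 3.45 and 22.98 ± 5.18, and Zm00001d029290 (CYP709H1) 7.54 ± 4.44 and 6.36 ± 2.16. Zm00001d047418 on chromosome 9, at 22.6 ± 4.24 and 26.7 ± 10.1 FPKM (adjusted p = 0.296), was the most abundant CYP709 gene in CW.

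Of 9 other CYP72 genes 6 were tested and none was called in edgeR. At an unadjusted p under 0.05, 1 was higher, or 16.7%, against 13.3% of all tested genes. DESeq2, limma on log2(FPKM + 1) and edgeR without CW replicate 3 each called 1 of these CYP72 genes, Zm00001d044146. Their median log2 fold change was 0.58. The most abundant, Zm00001d011418 on chromosome 8, stood at 52.8 ± 16.9 FPKM in LW and 56.6 ± 36.2 in CW (adjusted p = 0.632), and its neighbour Zm00001d011417 at 2.12 ± 0.52 and 1.28 ± 0.786 (adjusted p = 0.726). Of 12 genes in other families of the clan (CYP714, known for gibberellin inactivation, CYP734, known for brassinosteroid inactivation, and CYP721) 8 were tested and none was called in edgeR. At an unadjusted p under 0.05, 1 was higher and 1 lower, or 12.5% each, against 13.3% and 11.4% of all tested genes. DESeq2 fitted 10 and called 0, and limma on log2(FPKM + 1) fitted 7 and called 1 higher. Of the genes in these families, brassinosteroid catabolism2 (Zm00001d046422) had a log2 fold change of 1.65 (SE 0.669, adjusted p = 0.184, edgeR).

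**Figure D3:**
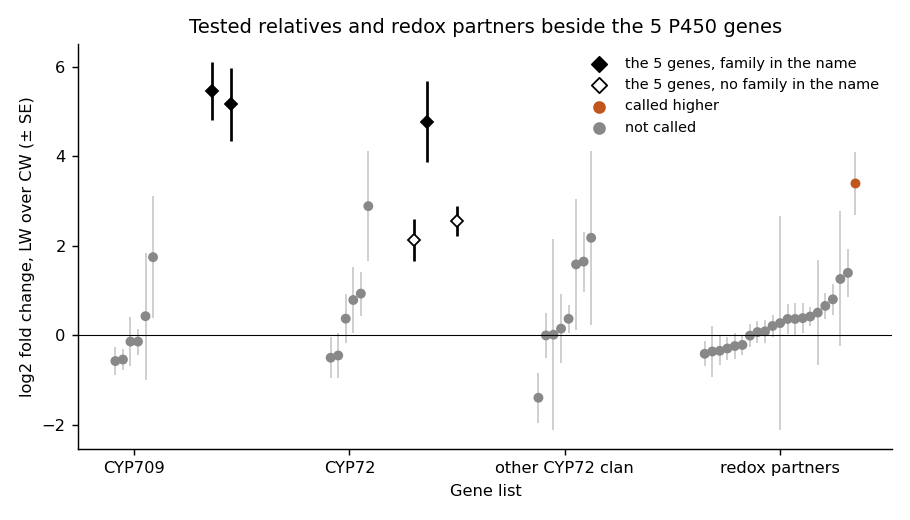
Log2 fold change, LW over CW, with its SE, of the tested CYP709, CYP72, other CYP72 clan and redox partner genes (dots) and of the 5 listed P450 genes (diamonds, open where the name gives no family). With all libraries, as drawn, the dots of the CYP709 list lie between -0.58 and 1.75, below both CYP709 diamonds. A NADPH-cytochrome P450 reductase is the 1 gene among the dots drawn that edgeR called with all libraries.

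Among the redox partners, which hand electrons to P450 enzymes, edgeR called 1 of 21 tested genes higher with all libraries and 0 lower. That is 4.76% higher, against 2.84% of all tested genes. Without CW replicate 3 it called 2 of 23 higher, in a fit that called 5.88% of all genes higher. With so few genes nothing is read from these counts. A NADPH-cytochrome P450 reductase (Zm00001d050218; chromosome 4, 74240150 to 74245597) stood at 41.9, 28.4 and 78.8 FPKM in LW and at 7.40, 2.28 and 1.49 in CW, without overlap (10.5-fold higher, log2 fold change 3.39, SE 0.713, adjusted p = 0.044, edgeR). With CW replicate 1 left out the fold was 20.6 (adjusted p = 0.049), and with CW replicate 3 left out it was 8.06 (adjusted p = 0.0453). Without any other library the adjusted p was 0.0906 to 0.16, in fits that called 0 to 3 genes higher over all. No other NADPH-cytochrome P450 reductase was called in any fit run: Zm00001d002024 had 91.8 ± 15.8 FPKM in LW and 97.2 ± 14.7 in CW (adjusted p = 0.401), and Zm00001d032090 68.4 ± 3.71 and 62.4 ± 5.85 (adjusted p = 0.607). The most abundant cytochrome b5 gene, B5 isoform D (Zm00001d041963), stood at 165 ± 36.2 and 123 ± 12.8 FPKM (adjusted p = 0.871). Another B5 isoform D gene, Zm00001d011786, was the second called without CW replicate 3 (4.06-fold, adjusted p = 0.0493); with all libraries it stood at 49.9 ± 23.9 and 15.2 ± 9.78 FPKM (2.63-fold, adjusted p = 0.161).

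In the whole family without the 5 genes, edgeR called 7 of 128 tested P450 genes higher (5.47%) and 3 lower (2.34%), against 2.84% and 2.40% of all tested genes. The median log2 fold change was 0.46. These counts went to 10 and 4 without CW replicate 3, a fit that called 5.88% of all genes higher and 4.64% lower. Without any other library they went to 0 or 2 higher and 0 lower. Those other fits called few genes of any kind: 189 higher and 87 lower of 25875 without CW replicate 1, and 0 to 3 higher and 0 lower in each of the rest. Of 18 genes in families that oxidise fatty acids or jasmonates, 2 rose and 1 fell. The gene described as 94B3 (Zm00001d004664), whose Arabidopsis namesake hydroxylates jasmonoyl-isoleucine, rose 6.01-fold from 5.86 ± 2.44 to 45.2 ± 7.94 FPKM (log2 fold change 2.59, SE 0.375, adjusted p = 0.0234). A family 94, subfamily D gene (Zm00001d038064) rose 3.47-fold (adjusted p = 0.0314), and a CYP704 gene (Zm00001d026067) went from 6.34 ± 2.17 to 0.92 ± 0.666 FPKM (log2 fold change -3.08, SE 0.629, adjusted p = 0.0424). Without CW replicate 3 the same numbers of this list passed. Without any other library 1 or 0 passed, in the same fits that called few genes of any kind.

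Of the remaining P450 genes 5 of 90 rose and 2 fell. A family 87 gene (Zm00001d032458) rose 12.5-fold from 9.44 ± 6.46 to 152 ± 86.3 FPKM (adjusted p = 0.0299), and a second family 87 gene on chromosome 1, Zm00001d032459, singled out once its value had been seen, rose 3.42-fold from 5.70 ± 1.99 to 24.8 ± 2.73 FPKM (adjusted p = 0.0313). The 2 lie 39.6 kb apart with 1 feature between them, listed at 0 in all 6 libraries. Further rises were those of Zm00001d051863, a putative P450 (9.14-fold, adjusted p = 0.0231), Zm00001d034769 of family 722 (7.22-fold, adjusted p = 0.0236) and Zm00001d020628, described as 84A1, in Arabidopsis a hydroxylase of lignin precursors (5.31-fold, adjusted p = 0.033). Cytochrome P450 15 (Zm00001d053782), of the same numbered name series as cytochrome P450 10 and 11, fell from 23.7 ± 6.39 to 11.7 ± 0.376 FPKM (log2 fold change -1.38, adjusted p = 0.0417), and a 99A2 gene (Zm00001d029519) from 51.1 ± 10.2 to 26.5 ± 7.09 FPKM (adjusted p = 0.0424). Scaled by library totals, neither fall passed (adjusted p = 0.0586 and 0.0883).

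Summed over the P450 genes of the table, transcripts amounted to 2005, 2020 and 2139 FPKM in LW replicates 1 to 3 and to 925, 892 and 1239 FPKM in CW. The 5 genes made up 22.6%, 22.7% and 22.7% of this sum in LW and 4.49%, 2.11% and 3.12% in CW. Without them the sum was 1553, 1562 and 1654 FPKM in LW and 883, 873 and 1200 FPKM in CW. These sums are not scaled by TMM, whose factors were 1.055, 1.206 and 1.141 in LW and 0.887, 0.854 and 0.910 in CW. With such factors the groups would lie closer together, so no lack of overlap is read from the FPKM sums. Their share was nearly constant over LW while its parts varied: the pair held 237, 294 and 260 FPKM and the chromosome 3 genes 215, 164 and 225 FPKM.

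**Figure D4:**
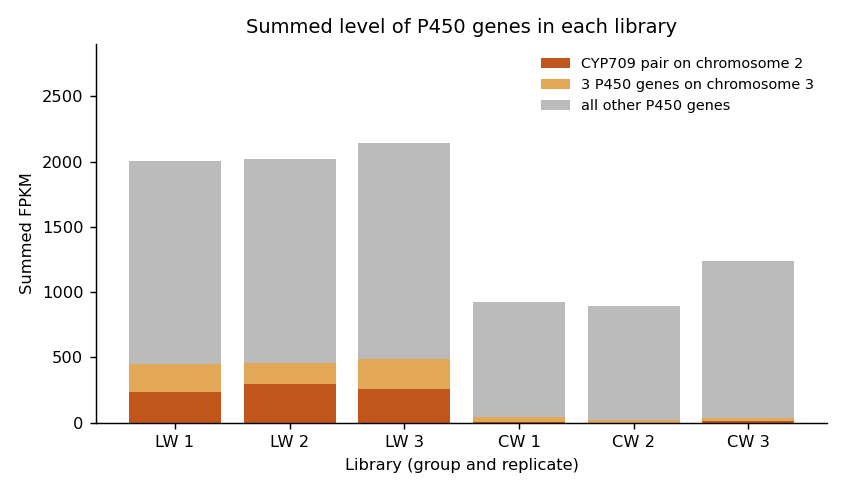
Summed FPKM of P450 genes in each library, split into the CYP709 pair, the 3 listed genes on chromosome 3 and all other P450 genes, on an axis from 0. The coloured part is 452 to 485 FPKM in LW and 18.8 to 41.5 FPKM in CW.

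Likeness of pattern was measured as the root mean square difference between log2(FPKM + 1) profiles over the 6 libraries, each centred on its own mean, so that 0 means the same steps between libraries whatever the level. Within the 5, the CYP709 pair was closest, at 0.267, followed by 709B2 and 72A8 at 0.322, which lie on different chromosomes. The neighbours 72A8 and cytochrome P450 11 were at 0.898, and cytochrome P450 10 and 11 at 0.663. CYP709C14 and cytochrome P450 10 were farthest apart, at 1.761. As this measure is dominated by the step between the groups, it ranks genes mainly by the size of that step.

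Outside the 5, the gene most like both CYP709 genes was 12-oxo-phytodienoic acid reductase2 (Zm00001d044906, chromosome 9), of the family of oxylipin reductases, at 0.239 from CYP709C14 and 0.380 from 709B2. It stood at 183, 238 and 262 FPKM in LW and 2.74, 1.18 and 8.16 in CW, with CW replicate 3 again the highest of its group. Next to CYP709C14 came an aldo-keto reductase gene (Zm00001d031666, 0.299; 94.9, 98.7 and 119 FPKM in LW and 0, 0.71 and 2.75 in CW) and 12-oxo-phytodienoic acid reductase1 (Zm00001d044908, 0.362). The aldo-keto reductase missed the threshold in edgeR with all libraries (adjusted p = 0.0503) and passed without CW replicate 3 (adjusted p = 0.0285). For 709B2 the next was an HXXXD-type acyltransferase gene (Zm00001d035865, 0.453), which was also the nearest to 72A8 (0.385), at 48.6 to 87.0 FPKM in LW and 1.32 to 3.21 in CW. The aldo-keto reductase came after it for 709B2 (0.511). For 72A8 a DUF1645 gene (Zm00001d044100, 0.395) and a UDP-glycosyltransferase described as 84A1 (Zm00001d053715, 0.411), of a class of enzymes that attach sugars, followed.

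Cytochrome P450 10 was most like an arogenate dehydratase gene of phenylalanine synthesis (Zm00001d025333, 0.176; 19.3, 11.5 and 27.1 FPKM in LW and 5.10, 0.81 and 2.22 in CW), a casein kinase I gene (Zm00001d018440, 0.180) and a phospholipase A1 gene (Zm00001d049594, 0.192). All of them shared with it the dip in LW replicate 2 and the high value in CW replicate 1, which follows from their choice by likeness over these same libraries. Cytochrome P450 11 was most like a homologue of the 60S subunit biogenesis factor REI1 (Zm00001d014585, 0.142), MYB-related-transcription factor 40 (Zm00001d013777, 0.158), which overlaps another annotated gene so that its value is uncertain, and an ABC1 family gene (Zm00001d036475, 0.177). None of the genes named for likeness to cytochrome P450 10 or 11 was named for the CYP709 pair.

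Elsewhere in the genome, 8 pairs of P450 genes that are direct neighbours by start position, without any of the 5, had both genes tested. Zm00001d029289 is in a pair with each of its neighbours. In none of the 8 pairs was either gene called by edgeR, which called 2.84% of all tested genes higher and 2.40% lower. With so few genes nothing is read from the lack of calls. The median absolute difference between the neighbours' log2 fold changes was 0.40, against 1.02 over 14884 neighbouring pairs of all tested genes. The called family 87 genes Zm00001d032458 and Zm00001d032459 were not counted among these pairs because of the feature between them, and differed by 1.87. The corresponding difference was 0.30 for the CYP709 pair and 2.21 for 72A8 and cytochrome P450 11.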

How the data were processed

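The authors deposited 1 table with an FPKM value and an estimated count per gene for each of the 6 libraries. The deposited counts are whole but show an excess of multiples of 4, so they were treated as estimated counts, and no counting interval is given. Per the submitters' processing notes FastQC 0.10.1, HISAT2 2.0, StringTie 1.3.4 and edgeR were used, without stated roles; the sources used here do not give the genome build, annotation release or strand setting, and positions are those of the table. The labels' protocol describes poly(A) selection and mentions the poly(A)- RNA as well. Groups follow the titles; in CW replicate 2 the title was followed although its source name says 3.

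The counts of all genes were fitted with edgeR 4.0.16 (R 4.3.3; TMM, filterByExpr, glmQLFit and glmQLFTest, group as the only term), with Benjamini-Hochberg adjustment over all 24704 tested genes and calls at an adjusted p under 0.05. Alternatives were DESeq2 1.42.0, scaling by totals, no filter, limma 3.58.1 on log2(FPKM + 1) or log2(FPKM + 0.1) for genes with a mean of at least 0.5 FPKM in either group, quantile normalization, a replicate block, other windows of flanking features and leaving out each library. The fits were also run on simulated counts whose spread was set below that estimated for these libraries, so that run does not show how they perform here. CPM on TMM-scaled libraries gave overlaps between the groups for single genes and coefficients of variation. FPKM gave levels and their sums. The SE printed with an edgeR log2 fold change is its absolute value divided by the square root of the F statistic of glmQLFTest. Genes named are the 5, features between them and the 5 on each side, the 3 most alike to each, and up to 4 called genes per list and direction, plus relatives given as examples. P450 lists were matched by words in names and descriptions. The members and lists were chosen with earlier results of these data known. No sequences of these genes are printed.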

Additional observations from a re-analysis of the deposited data

How the results depend on the processing

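All 5 listed genes stayed higher in LW in every fit run. Their log2 fold changes, over leaving out each library, ran from 5.14 to 6.40 for CYP709C14, 4.73 to 6.49 for 709B2, 1.88 to 2.65 for cytochrome P450 10, 4.28 to 6.32 for 72A8 and 2.38 to 2.95 for cytochrome P450 11. Over the other settings they ran from 5.39 to 6.06, 4.81 to 5.91, 2.12 to 2.52, 4.16 to 5.64 and 2.46 to 2.96; the last value, from limma on log2(FPKM + 0.1), moved by more than the replicate spread.

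Counts of calls depended on the setting. Over all tested genes edgeR called 701 higher and 592 lower, DESeq2 2554 and 2053, scaling by totals 1425 and 346, limma 2345 on log2(FPKM + 1) and 2096 on log2(FPKM + 0.1) higher, and 1059 higher after quantile normalization. For P450 genes without the 5 the numbers higher and lower were 7 and 3 in edgeR, 23 and 12 in DESeq2, 13 and 1 scaled by totals and 12 and 6 after quantile normalization, with 19 and 17 higher in limma on log2(FPKM + 1) and log2(FPKM + 0.1). Of the flanking genes 1 was higher in edgeR, 4 in DESeq2, 5 and 2 in limma with these pseudocounts, and 2 with 20 features on each side. Leaving out a library gave 0 to 1512 higher and 0 to 1193 lower over all genes, 0 to 10 and 0 to 4 among P450 genes, and 0 to 2 and 0 among flanking genes. The upper values all came without CW replicate 3; without CW replicate 2 edgeR called none of 25904 genes, with 5220 at an unadjusted p under 0.05. Without CW replicate 1 it called 189 and 87, and without any 1 LW library 1 to 3 and 0. The cause was not tested.

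The replicate numbers do not pair the samples: deviations of same-numbered libraries correlated at -0.0359, 0.00448 and -0.240. With the replicate block 2 genes were called higher and 1 lower over all genes (4790 at an unadjusted p under 0.05), and 0 and 0 among P450 genes and 0 among flanking genes, with 37 P450 genes at an unadjusted p under 0.05. With 3 libraries a group, and estimated counts in place of reads, differences in genes listed near 0 could not be resolved.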
